A study of Homo sapiens with 8 samples.

Results

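The transcripts of 10 genes of the keratin system were followed in 8 RNA-seq libraries of HCT116, a long-established human line from a colorectal carcinoma. They are the 10 rows, of 58735 in the deposited table, named KRT7, KRT8, KRT13, KRT18, KRT19, KRT23, KRT80, KRT81, KRT86 and KRTAP3-1. They were picked with results of the control shRNA and MAPKAPK2 shRNA comparison, and for KRT7 and KRT80 also of the glucose comparison, already known. All 8 libraries came from cells that carried a short hairpin RNA (shRNA), and they form 4 groups of 2. In the first group the cells expressed a control shRNA and were kept in DMEM with 20 mM glucose, and in the second the same control cells were kept without glucose (0 mM) for 24 h. The other groups expressed MAPKAPK2 shRNA #1 or MAPKAPK2 shRNA #2, at 20 mM glucose; they are called shRNA 1 and shRNA 2 here, and the sources used here give no time in the medium for them. MAPKAPK2 (MK2) is a kinase that acts downstream of the stress kinase p38, and no group combined its knockdown with glucose removal. Whether the libraries of a group were grown as separate cultures is not stated in the labels; a p-value here therefore reflects the spread of these 2 libraries per group, which may be technical.

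Keratins are the intermediate filament proteins of epithelial cells. An acidic type I keratin pairs with a basic type II keratin, and the pairs assemble into filaments that are anchored at desmosomes and hemidesmosomes and give the cell sheet its mechanical strength. KRT8 (type II) with KRT18 and KRT19 (type I) is the set of simple epithelia, including the lining of the gut, and KRT7 (type II) is typical of ductal and glandular linings and sparse in normal colon. KRT80 is a type II keratin found near desmosomes, KRT81 and KRT86 are type II keratins of the hair shaft, and KRTAP3-1 belongs to the proteins that cross-link hair keratins. KRT13 is a type I keratin of non-cornifying stratified epithelia such as the oesophagus, and KRT23 is a type I keratin.

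Levels are given in FPKM, as deposited: read fragments scaled to the length of annotated exon and to a library size. The libraries held 14252316 to 19975449 reads assigned to genes, recovered from the FPKM. These reads divided by the size that the FPKM imply gave 0.970 and 0.932 with shRNA 1 and 1.045 and 1.053 with shRNA 2. In the controls the ratio was 0.965 to 0.999. The implied size is therefore not the sum of gene reads. It may hold a scaling between libraries that the sources used here do not describe, which bears on small differences between groups. The targeted gene was checked first: MAPKAPK2 stood at 16.4 and 16.2 FPKM in the 20 mM controls, 17.9 and 18.9 at 0 mM, 2.77 and 2.54 with shRNA 1 and 0.982 and 0.800 with shRNA 2, so it was low in every library labelled as knocked down. Of the epithelial markers, 6 of 6 reached 1 FPKM in every library, 3 of them being KRT8, KRT18 and KRT19, and their summed level ranged from 1252 to 1834 FPKM. Of 6 intestinal markers only CDX2 reached 1 FPKM in every library, 4 stayed under 1 in all and CDX1 was at 0. Leukocyte (5 of 5) and endothelial (4 of 4) markers were under 1 FPKM in every library. Of the 5 keratinocyte markers 4 were under 1, KRT1 being at 0, and of the 6 fibroblast markers 5 were under 1, DCN and LUM being at 0. The exceptions were KRT10 and COL1A1.

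Hair keratins are close copies of each other, which bears on every KRT81 and KRT86 value below. KRT81 (ENSG00000205426, chr12:52285913-52291534, minus strand, GRCh38, GENCODE 29) lies wholly inside the annotated span of KRT86 (ENSG00000170442, chr12:52249300-52309163, plus strand). Their coding sequences were identical at 93.6% of 1454 aligned bases, with an unbroken identical run of 605 bases that starts at coding base 61. The first 90 bases of that run, coding bases 61 to 150 of both genes, show what a read cannot tell apart.

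KRT81 and KRT86: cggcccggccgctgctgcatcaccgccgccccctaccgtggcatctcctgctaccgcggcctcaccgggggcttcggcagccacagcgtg

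The 90-base window in which they differ most, coding bases 1237 to 1326, holds 19 differences. The capitals mark the differing bases, the positions at which a read can tell KRT81 from KRT86. They were not compared with other genes. A further hair keratin, KRT83, had a coding identity of 93.4% to KRT81 and 91.3% to KRT86.

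KRT81: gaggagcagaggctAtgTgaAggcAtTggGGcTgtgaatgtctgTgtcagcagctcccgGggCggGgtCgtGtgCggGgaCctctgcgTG
KRT86: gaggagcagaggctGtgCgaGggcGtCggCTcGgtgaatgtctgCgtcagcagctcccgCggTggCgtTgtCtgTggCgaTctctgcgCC

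Over whole annotated transcripts, 29.7% of the 100-base stretches of KRT81 and 25.8% of those of KRT86 also occurred in another gene, read on either strand. At 50 bases the shares were 43.7% and 37.5%. KRT18 (24.5% at 50 bases) and KRT8 (16.1%) came next. Each shared the most stretches with the other, as their annotated exons overlap by 525 bases on opposite strands, and the next partners were pseudogenes of each. At 50 bases KRT8 had 258 partner genes and KRT18 had 45, and the rest of these were not sorted by kind. For KRT19, KRT80 and KRTAP3-1 no stretch of 100 bases was shared. Read length, and whether counting used strand, are not given in the sources used here, so KRT81 and KRT86 levels are uncertain to the extent that reads of one were assigned to the other or dropped.

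**Figure D1:**
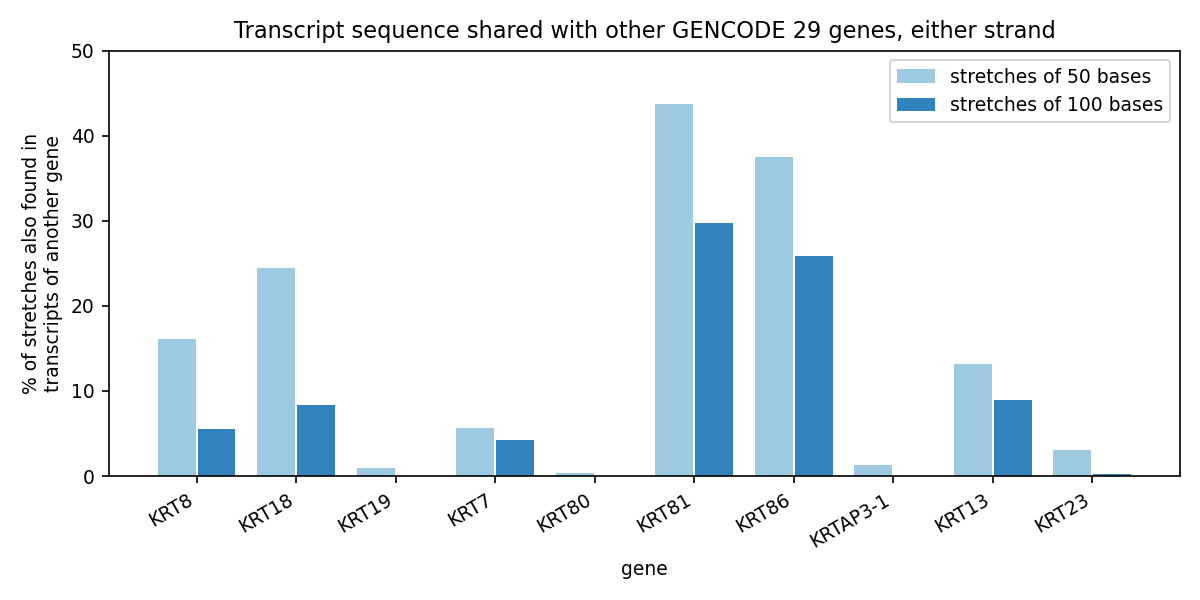
Share of the 50-base (light) and 100-base (dark) stretches of each gene's annotated transcripts, in %, that also occur in transcripts of another gene on either strand. KRT81 and KRT86 stand highest at both lengths, and KRT19, KRT80 and KRTAP3-1 are at or near 0.

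KRT8, KRT18 and KRT19 made up 91.0 to 96.4% of all keratin FPKM in each library, and reads of protein-coding keratin genes were 0.403 to 0.782% of all reads in genes. FPKM divides by the union of annotated exons, which for KRT8 is 6881 bases beside a coding sequence of 1533, so the level of KRT8 relative to its partners depends on that annotation. KRT7, KRT80, KRT81, KRT23 and KRTAP3-1 lay between 4.87 and 41.2 FPKM in the 20 mM controls, and KRT86 and KRT13 stood at or under 1 FPKM there. In those controls the order of mean levels was KRT19, KRT8, KRT18, KRT7, KRT80, KRT23, KRT81, KRTAP3-1, KRT86 and KRT13. Of neighbours in this order, KRT23 and KRT81 overlapped between their libraries, and KRT86 and KRT13 all but touched, at 0.65708 and 0.65676 FPKM. All 10 genes passed the filter for testing, 1 FPKM or more in 2 or more of the libraries, but KRT86 did so only through the 0 mM libraries and KRTAP3-1 only through the control libraries, the groups in which they are high.

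**Figure D2:**
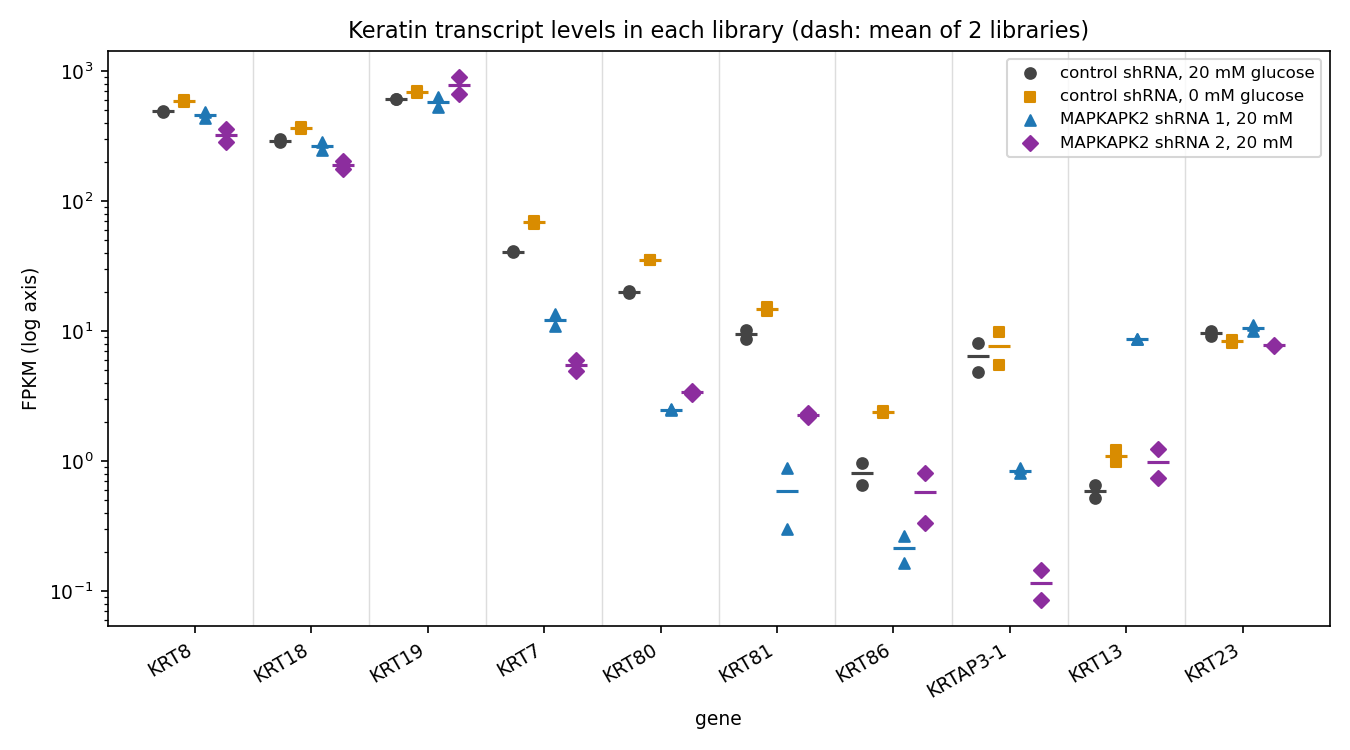
FPKM of the 10 genes on a log axis, by library, with a dash at the mean of the 2 libraries of a group. KRT8, KRT18 and KRT19 are at 177 FPKM or more in every library, while KRT7, KRT80, KRT81 and KRTAP3-1 lie lower in all 4 MAPKAPK2 shRNA libraries than in any control.

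KRT8 (ENSG00000170421, chr12:52897187-52949954, minus strand) measured 489 and 498 FPKM in the 20 mM controls, 601 and 580.1 at 0 mM, 489.65 and 437 with shRNA 1 and 361 and 285 with shRNA 2. KRT18, its partner (ENSG00000111057, chr12:52948871-52952901, plus strand), measured 285 and 300.2, 362 and 375, 287 and 249, and 204 and 177 in the same order. Both genes were highest without glucose and lowest with shRNA 2, and the shRNA 1 libraries overlapped the 20 mM controls. The ratio of KRT8 to KRT18 stayed between 1.55 and 1.77 in the 8 libraries. With shRNA 2 the mean of KRT8 was 323 ± 53.3 FPKM (SD, n = 2), 65.5% of the 20 mM control mean of 493 ± 6.22, and KRT18 was at 65.0% of control. In bulk RNA, fewer cells of a kind and less RNA per cell cannot be told apart.

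KRT19 (ENSG00000171345, chr17:41523617-41528308, minus strand), a type I keratin that can pair with KRT8 in place of KRT18, did not follow them with shRNA 2. It measured 610.1 and 615 FPKM at 20 mM, 699 and 677 at 0 mM, 629 and 530.2 with shRNA 1 and 905 and 673 with shRNA 2. Its ratio to KRT18 was 1.80 to 2.19 in the control and shRNA 1 libraries, and 4.43 and 3.81 in the shRNA 2 libraries. A ratio within a library does not depend on the scaling between libraries, and here it shows that KRT18 and KRT19 changed unequally. Summed over the members, type II to type I FPKM was 0.615 to 0.677 in the controls, 0.541 and 0.566 with shRNA 1 and 0.334 and 0.345 with shRNA 2.

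**Figure D3:**
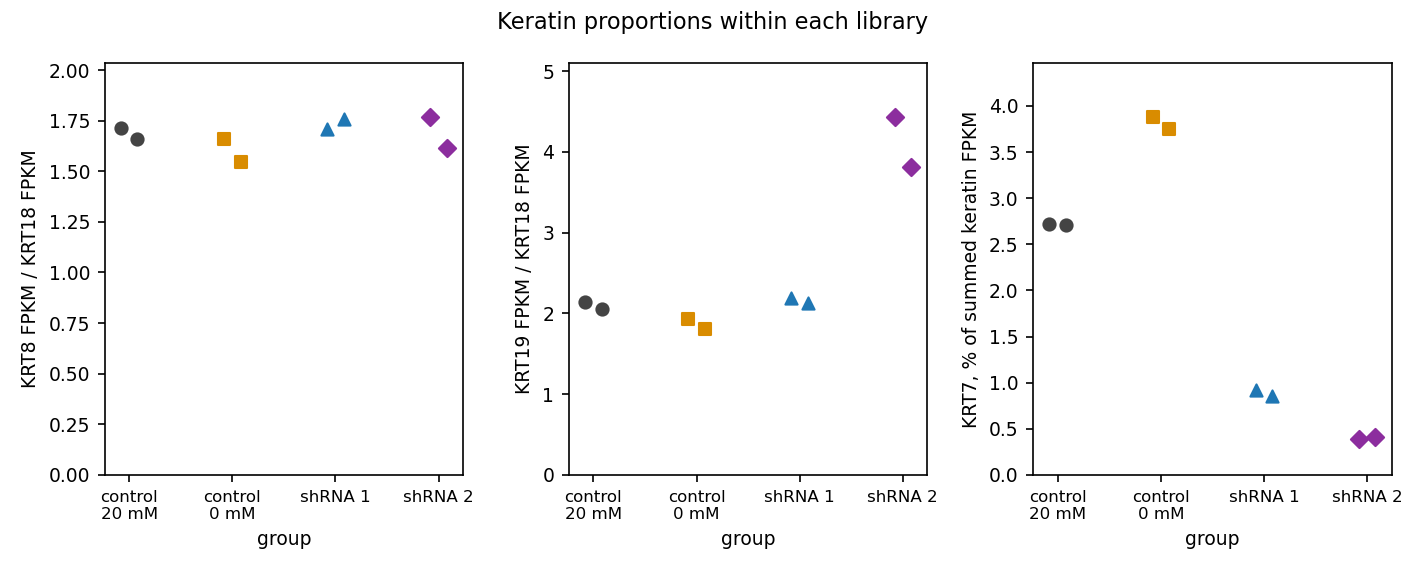
KRT8 to KRT18 and KRT19 to KRT18 ratios of FPKM, and KRT7 as a percent of summed keratin FPKM, one point per library in the 4 groups. The KRT8 to KRT18 ratio stays between 1.55 and 1.77, the KRT19 to KRT18 ratio separates the shRNA 2 libraries (4.43 and 3.81) from the rest, and the KRT7 share is lowest with shRNA 2.

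KRT7 (ENSG00000135480, chr12:52232520-52252186, plus strand) measured 40.4 and 41.2 FPKM at 20 mM, 70.8 and 67.1 at 0 mM, 13.5 and 10.9 with shRNA 1 and 6.01 and 4.90 with shRNA 2. The 4 groups did not overlap: the level without glucose was 1.69 times that of the 20 mM controls, and the shRNA means were 29.9% and 13.4% of control. KRT7 made up 2.71% of the keratin FPKM in both 20 mM controls, 0.926 and 0.856% with shRNA 1, and 0.394 and 0.417% with shRNA 2. An antisense gene, KRT7-AS, overlaps 282 exon bases (6.89%) of KRT7. It was much lower, at 1.73 and 1.76, 3.45 and 3.45, 0.722 and 0.734, and 0.156 and 0.0734 FPKM in the same order, and its groups stood in the same order as those of KRT7. Without strand, reads in the overlap cannot be told apart.

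KRT80 (ENSG00000167767, chr12:52168996-52192000, minus strand) measured 20.6 and 19.7 FPKM at 20 mM, 35.3 and 35.5 at 0 mM, 2.47 and 2.51 with shRNA 1 and 3.46 and 3.30 with shRNA 2. Replicates lay close together and the groups did not overlap: glucose removal went with 1.76 times the control level, and the shRNAs with 12.4% and 16.8% of it. Among 7119 protein-coding genes with a mean of at least 5 FPKM, the profiles nearest to that of KRT80 over the 8 libraries were those of CYR61, NGFR, KRT81, SLC2A3 and DKK1. Nearness was the root mean square distance between centred log2(FPKM + 1) profiles, which ran from 0.266 for CYR61 to 0.474 for DKK1. Pearson's r with KRT80 was 0.954 to 0.991 for these genes, over 8 libraries that fall into 4 groups, and is a description. KRT7 ranked 8th by the same measure.

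The hair keratin KRT81 measured 8.65 and 10.3 FPKM at 20 mM, 15.3 and 14.4 at 0 mM, 0.303 and 0.881 with shRNA 1 and 2.33 and 2.19 with shRNA 2. It was highest without glucose (1.57 times control) and lowest with shRNA 1 (6.27% of control), where the values rest on 11 and 26 reads. KRT86 measured 0.974 and 0.657 at 20 mM, 2.42 and 2.33 at 0 mM, 0.266 and 0.164 with shRNA 1 and 0.816 and 0.337 with shRNA 2. Its 0 mM libraries were above all the others and its shRNA 2 libraries overlapped the controls. By summed reads, KRT86 with shRNA 1 was 27.2% of control (18 against 67 reads, exact 95% interval 15.2 to 46.3%, counting error only).

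KRTAP3-1 (ENSG00000212901, chr17:41008521-41019324, minus strand) measured 4.87 and 8.06 FPKM at 20 mM, 5.47 and 9.84 at 0 mM, 0.879 and 0.812 with shRNA 1 and 0.146 and 0.0857 with shRNA 2. The control groups overlapped each other, and all 4 MAPKAPK2 shRNA libraries were far below them. The shRNA 2 values rest on 2 and 1 reads; summed over both libraries they were 1.81% of the 163 reads of the 20 mM controls after scaling to library size, with an exact 95% interval of 0.370 to 5.39%. KRTAP3-1 had the lowest share of control left of any member, and its upstream sequence is shown for that reason. RefSeq promoter sequences matched 2 of the 10 genes, KRT8 and KRTAP3-1. The 250 bases upstream of the RefSeq start of KRTAP3-1 (GRCh38.p14, chr17:41009129-41009378, minus strand, 5′ to 3′) are given with the motif matches in capitals.

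KRTAP3-1 upstream: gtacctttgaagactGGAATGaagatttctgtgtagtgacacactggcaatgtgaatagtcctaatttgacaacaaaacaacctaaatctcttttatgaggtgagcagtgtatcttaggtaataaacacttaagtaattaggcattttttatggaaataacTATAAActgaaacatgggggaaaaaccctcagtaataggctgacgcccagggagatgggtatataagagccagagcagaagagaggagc

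Motifs of 4 kinds were searched on both strands, and their background is the share of 35116 RefSeq promoter windows of this length that hold them. The TEAD motif, spelled GGAATG, was found 1 time in KRTAP3-1, starting 235 bases before the RefSeq start, and occurs in 11.9% of windows. The TATA box, spelled TATAAA, was found 1 time, starting 89 bases before the RefSeq start, and occurs in 10.7%. Only this spelling was searched. The printed sequence also holds tatataag, nearer to the start, which the search could not count and left in lower case. The AP-1 motif, spelled TGANTCA (6.57% of windows), and the GC box, spelled GGGCGG (42.6%), were not found. The matches do not overlap, and the window of this length upstream of the RefSeq start of KRT8 held none of the 4 spellings. Both windows lie inside the GENCODE spans given above for these genes. They therefore lie upstream of a RefSeq start and not of the GENCODE start. The matches are of letters and nothing more.

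KRT13 (ENSG00000171401, chr17:41500981-41505705, minus strand) moved the opposite way with shRNA 1. It measured 0.657 and 0.521 FPKM at 20 mM, 1.21 and 0.979 at 0 mM, 8.66 and 8.71 with shRNA 1 and 1.23 and 0.746 with shRNA 2. The shRNA 1 libraries stood 14.8 times above control, on 475 and 388 reads, and the highest of the other libraries was at 1.23 FPKM. Both shRNA 2 libraries were also above both 20 mM controls, at 172% by summed reads (exact 95% interval 124 to 241%, counting error only). An antisense gene that overlaps 16.3% of its exon bases was at 0 in all libraries. KRT23 (ENSG00000108244, chr17:40922696-40937634, minus strand) varied least in proportion: 9.25 and 10.1 at 20 mM, 8.06 and 8.62 at 0 mM, 11.2 and 9.98 with shRNA 1 and 7.75 and 7.88 with shRNA 2. Its shRNA 1 libraries overlapped the controls and its shRNA 2 libraries were the lowest.

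Glucose removal was compared within control shRNA cells by limma on log2(FPKM + 1), fitted over all 16239 genes tested. For 8 of the 10 members both 0 mM libraries were above both 20 mM libraries, beside 19.1% of all genes tested. Nothing is read from the excess, since KRT7 and KRT80 were picked with this comparison known and KRT86 entered testing only through its 0 mM libraries. KRTAP3-1 overlapped and KRT23 was lower in both. The differences on the log2 scale were 0.26 for KRT8, 0.33 for KRT18, 0.17 for KRT19, 0.61 for KRT81, 0.90 for KRT86, 0.40 for KRT13, 0.20 for KRTAP3-1 and -0.19 for KRT23, each with a standard error between 0.10 and 0.28. No gene in the whole table (0%) passed a Benjamini-Hochberg adjusted p of 0.05, although 1421 had an unadjusted p under 0.05, among them 4 of the 8 members other than KRT7 and KRT80. The adjusted p of these 8 ran from 0.408 to 0.908 in limma, so their differences are not distinguished from the spread between libraries. KRT7 (0.74) and KRT80 (0.78) were chosen with this comparison known and are given as a description.

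On the recovered reads, with the library sizes that the FPKM imply, limma voom called 28 genes (0.172%) for glucose. KRT7 and KRT80 are among them, and KRT80 among those called by limma on protein-coding genes alone, but both were picked on this comparison, so these calls are a description too. KRT19 changed sign, to -0.02, when the libraries were quantile normalized, and KRTAP3-1 changed sign when single control libraries were left out (from -0.17 to 0.57).

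**Figure D4:**
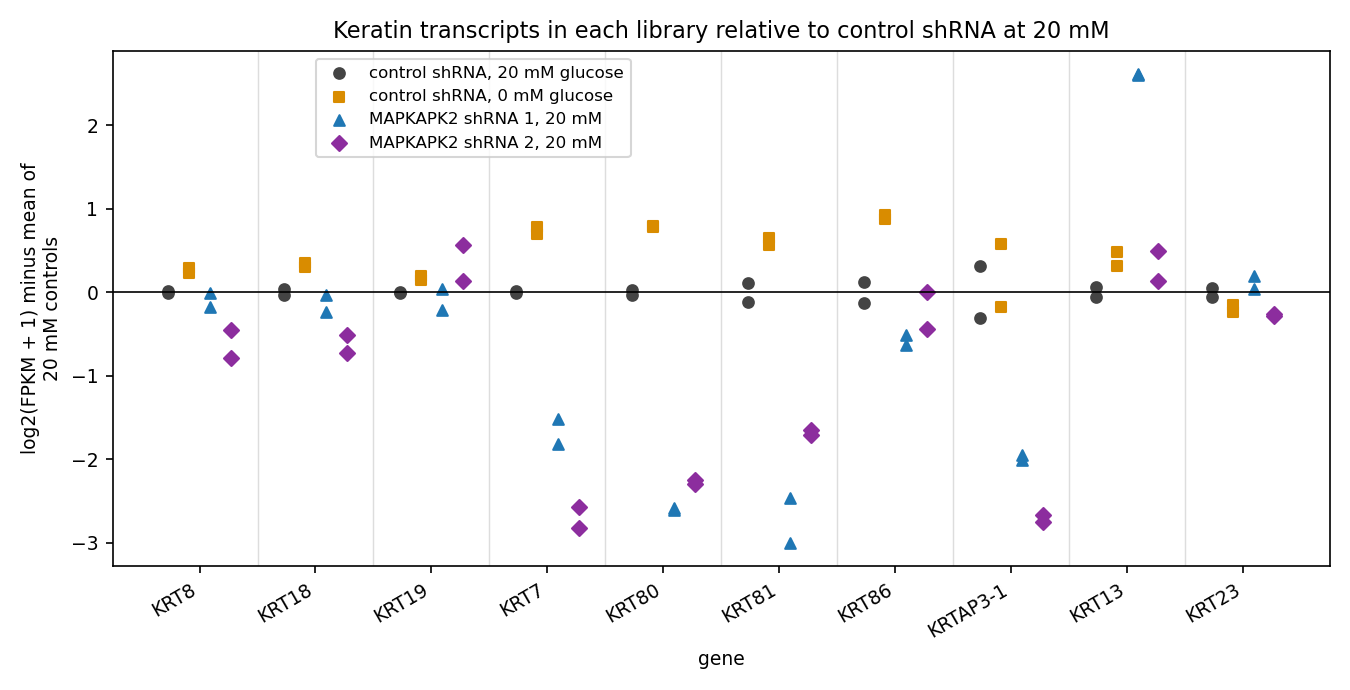
Each library's log2(FPKM + 1) minus the mean of the 20 mM controls, for the 10 genes in the 4 groups. Most of the 0 mM points lie above 0. In the MAPKAPK2 shRNA libraries KRT7, KRT80, KRT81 and KRTAP3-1 lie far below 0, while KRT13 is far above 0 with shRNA 1 only.

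The MAPKAPK2 knockdown compared the mean of both shRNAs with the 20 mM controls, which are also the controls of the glucose comparison. The members were chosen on this contrast, so their values and calls are a description of that choice, and nothing is read from a count set beside the share of all genes. KRT80 stood at -2.43, KRTAP3-1 at -2.35, KRT81 at -2.21 and KRT7 at -2.18 on the log2(FPKM + 1) scale, which understates changes of low genes. KRT13 stood at 1.46, KRT18 at -0.38, KRT8 at -0.36, KRT86 at -0.39, KRT19 at 0.13 and KRT23 at -0.08. Of the 10, 1 was called higher and 5 lower, beside 17.3% of all genes called, and KRT18, one of the 5, lost its call in 11 of 15 alternatives. KRT7, KRT80, KRT81 and KRTAP3-1 were below all 4 control libraries in all 4 MAPKAPK2 shRNA libraries, beside 9.24% of genes, which the choice of members fixes in part.

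The shRNAs were then compared with each other, shRNA 2 minus shRNA 1. No control library enters this difference, but its error is estimated over all 4 groups, and the same shRNA libraries entered the comparison on which the members were picked. The tests therefore compare the shRNAs gene by gene, and the counts over the members are no independent evidence. All 10 members had non-overlapping libraries, 6 lower and 4 higher with shRNA 2, beside 60.0% of genes tested that did not overlap in either direction. By limma with Benjamini-Hochberg adjustment over 16239 genes, 7 members passed at an adjusted p under 0.05, 5 lower and 2 higher, beside 22.2% of all genes. KRT13 was lower by the most, at -2.29 ± 0.16 (standard error, adjusted p = 0.0005), and KRT7 was at -1.03 ± 0.13 (adjusted p = 0.0028). KRT81 was higher with shRNA 2, at 1.06 ± 0.18 (adjusted p = 0.0081). KRT13 and KRT7 passed under all 15 alternatives, and KRT81 under all but the fit to the compared libraries alone (adjusted p = 0.0729).

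Smaller differences passed with less room. KRT8 was at -0.53 ± 0.14 (adjusted p = 0.0363), KRT18 at -0.49 ± 0.12 (0.0282), KRT23 at -0.39 ± 0.10 (0.0288) and KRT80 at 0.33 ± 0.08 (0.0293) in limma. Their direction held in every alternative, but with 1 library left out KRT8, KRT18 and KRT80 passed in 1 of 8 fits and KRT23 in 2 of 8, with limma adjusted p values up to 0.176, 0.157, 0.141 and 0.166. Each of the 4 calls was lost without either 20 mM control and without either shRNA 1 library. KRT8 and KRT18 are overlapping genes on opposite strands, and their shared bases are counted with uncertainty.

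KRT19 (0.43, 95% interval 0.04 to 0.82), KRTAP3-1 (-0.73, -1.40 to -0.05) and KRT86 (0.36, -0.19 to 0.91) did not pass in limma, at adjusted p values of 0.107, 0.114 and 0.308. KRT19 passed in the voom fit (adjusted p = 0.0257) and stood at -0.05 after quantile normalization. KRTAP3-1 rests on 3 reads in the shRNA 2 libraries, against 21 with shRNA 1 (13.9% by summed reads, exact 95% interval 2.66 to 46.6%), and passed with a pseudocount of 0.1, at -2.15 (limma adjusted p = 0.0084).

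Other genes moved between the shRNAs beside these. MAPKAPK2 itself was lower with shRNA 2 than with shRNA 1 by 0.95 on the log2 scale (limma adjusted p = 0.0012). The epithelial markers that are no members were also lower with shRNA 2 than with shRNA 1. EPCAM measured 139 and 131 FPKM with shRNA 1 and 70.0 and 68.2 with shRNA 2, and CDH1 27.2 and 27.5 against 9.62 and 10.8. The 20 mM controls lay between the shRNAs, at 108 and 116 for EPCAM and 15.1 and 13.5 for CDH1. The summed epithelial marker list was 1439.9 to 1646.6 FPKM with shRNA 1 and 1252.1 to 1596.9 with shRNA 2, overlapping because KRT19 is in it. The part of residual MAPKAPK2 or of these markers in the keratin differences was not tested.

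**Figure D5:**
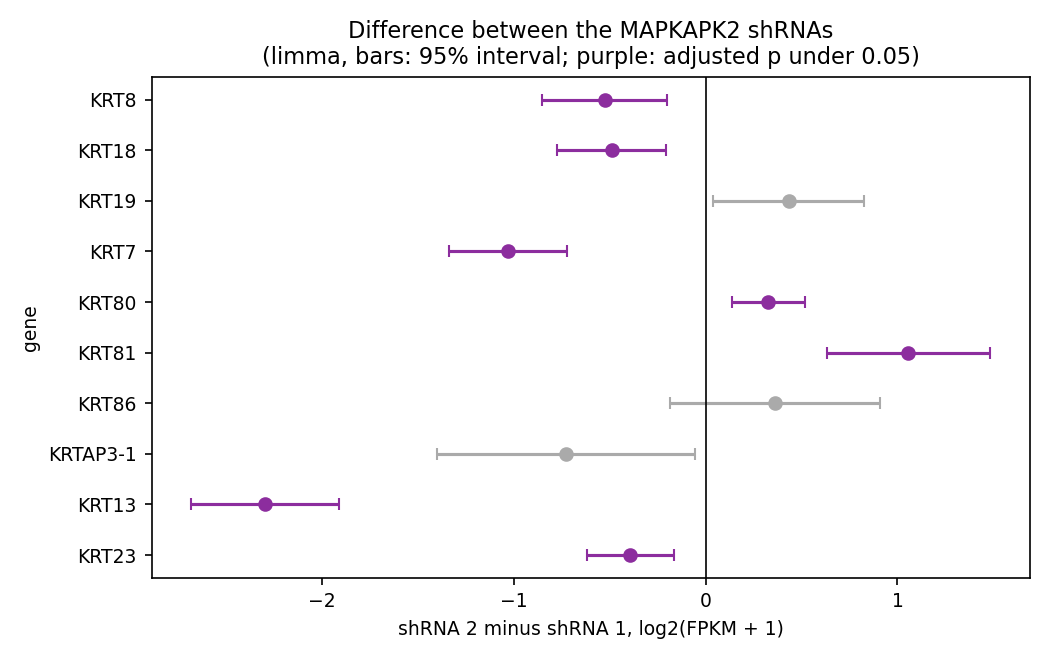
Difference of shRNA 2 minus shRNA 1 in log2(FPKM + 1) for each gene, from limma, with 95% intervals (purple where the adjusted p was under 0.05). KRT13, KRT7, KRT8, KRT18 and KRT23 lie below 0 and KRT81 and KRT80 above it; KRT19, KRTAP3-1 and KRT86 did not pass.

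Of the 139 other protein-coding keratin and keratin-associated genes, 81 had no read in any library and 129 stayed under 1 FPKM in all. Only 9 were tested. KRTAP2-3, a neighbour of KRTAP3-1 in the chromosome 17 hair cluster, measured 13.5 and 12.5 FPKM at 20 mM, 13.3 and 13.3 at 0 mM, 21.7 and 18.7 with shRNA 1 and 19.8 and 19.4 with shRNA 2. It rose with the knockdown by 0.57 ± 0.08 (limma adjusted p = 0.0059), opposite to KRTAP3-1, and lost the call only without the second 20 mM control (adjusted p = 0.0696). KRTAP2-4 rose by 0.73 (limma adjusted p = 0.043), a call that 11 of 15 alternatives lost. So 2 of 9 passed in this contrast and none fell, beside 9.57% of all genes that rose and 7.77% that fell. Sequence shared between KRTAP2-3 and KRTAP2-4 was not examined, so reads of one may have been assigned to the other. For shRNA 2 minus shRNA 1, KRT15 was higher (0.53, adjusted p = 0.0341) and KRTAP2-4 lower (-0.92, 0.0296) in limma. With either shRNA 1 library left out neither passed. KRT6A, a keratin of stressed and wounded epidermis, was 1.42 and 1.32 FPKM with shRNA 2 and at most 0.199 in the other libraries. It entered testing only through the group in which it is high, so its difference is a description. The count over the 9 genes ranged from 0 to 4 for the knockdown and 0 to 3, KRT6A included, between the shRNAs across the alternatives, and it was 0 for glucose in each. KRT10 and KRT20 were not called.

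Keratin filaments are held at junctions by desmosomal cadherins, plakins and plakophilins, and 15 of 19 listed anchoring genes were tested. In the knockdown 6 rose and none fell, beside 9.57% of all genes that rose and 7.77% that fell. The median difference was 0.31 beside -0.004 over all genes. Of the 6, MACF1 measured 7.02 and 8.45 FPKM with shRNA 1, which overlapped the 20 mM controls (7.69 and 6.63). With shRNA 2 it measured 16.1 and 21.4. PKP4, a plakophilin, was at 3.02 and 2.77 FPKM at 20 mM and 8.87, 8.19, 8.76 and 10.6 in the shRNA libraries (1.37 ± 0.11, limma adjusted p = 0.0009). JUP, which encodes plakoglobin, went from 65.0 and 64.9 to values between 98.1 and 109.6 (0.67 ± 0.08, adjusted p = 0.0033). Across the alternatives 2 to 9 of the list were called, with 2 when either 20 mM control was left out, 4 and 3 without replicate 1 or 2 of shRNA 1, and neither PKP4 nor JUP lost its call. Between the shRNAs 2 were higher with shRNA 2, the desmocollin DSC2 (1.80, adjusted p = 0.0007) and the cytolinker MACF1 (1.17, 0.0042), and none was lower. The list was fixed with earlier results of these data known.

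Of 16 other intermediate filament genes 5 were tested, with a median of -0.10 in the knockdown. The lamin gene LMNB1 fell in the knockdown (-1.12 ± 0.08, limma adjusted p = 0.0007) and was higher with shRNA 2 than with shRNA 1 (1.22, adjusted p = 0.0006). VIM, the mesenchymal filament gene, stayed under 1 FPKM in every library. Of 21 listed transcription factors known to act on epithelial keratin genes 16 were tested (median 0.13). In the knockdown 4 rose, EHF, ELF3, KLF4 and GRHL1, and none fell, beside 9.57% of all genes that rose and 7.77% that fell. For ELF3 the shRNA 2 libraries (7.38 and 4.66 FPKM) overlapped the 20 mM controls (4.78 and 4.98), while shRNA 1 stood at 14.3 and 12.2. EHF, an ETS factor, went from 3.31 and 3.07 FPKM to 10.7 and 14.0 with shRNA 1 and 20.8 and 25.7 with shRNA 2 (2.09 ± 0.14, limma adjusted p = 0.0005). Between the shRNAs 3 were higher and 4 lower: EHF (0.86), FOSL1 (0.85) and KLF5 (0.84) were higher with shRNA 2, and GRHL3 measured 7.31 and 6.29 with shRNA 1 and 1.05 and 1.04 with shRNA 2 (-1.93 ± 0.13, limma adjusted p = 0.0004). The other 3 lower ones were GRHL2, ELF3 and TFAP2A. The knockdown count of this list was 1 without either 20 mM control and 2 without replicate 1 of shRNA 1, the count between shRNAs was 4 without that library, and EHF then lost its call between them (adjusted p = 0.0749). Of 20 squamous cornification genes 6 were tested, 3 above 0 and 3 below in the knockdown. Their median was -0.29, beside -0.004 over all genes, and ran from -0.92 to 0.01 across the alternatives. Those called were 2 that fell, beside 7.77% of all genes. They were CSTA (-0.95, limma adjusted p = 0.0075) and CNFN (-0.68, 0.0479), the second lost in 11 of 15 alternatives. CSTA lost its call without replicate 2 of the 20 mM controls (adjusted p = 0.0792), and the count ran from 0 there to 3 across the alternatives.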

How the data were processed

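RNA of HCT116 cells was sequenced in 8 libraries, 2 per group. The authors deposited FPKM per gene; DESeq2 1.20.0, HISAT2 2.0.5 and featureCounts 1.5.0-p3 are listed, without roles, in the submitters' processing notes. All 58735 rows matched GENCODE 29 (GRCh38). FPKM times length, times a library size fitted to make these values whole, was whole for 100% of values. The tolerance was 0.001 of a read, and wider in proportion for large counts. limma 3.58.1 (R 4.3.3) was fitted to log2(FPKM + 1) of 16239 genes with 4 group means and Benjamini-Hochberg adjustment; a knockdown call also required both shRNAs to share the sign. It was tested on simulated data. Poisson intervals cover counting error only. With 2 libraries against 2, an exact permutation test could not go below p = 0.333. Alternatives were a pseudocount of 0.1, no filter, voom, quantile normalization, protein-coding genes only, a replicate block, fewer libraries and each library left out. Members and lists were chosen with earlier results of these data known. Named genes were the members, called keratins, up to 4 per list by smallest p, the 5 nearest to KRT80, MAPKAPK2 and some of the exon-overlapping genes. EPCAM, CDH1, VIM and the other list genes were named after their values were seen.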

Additional observations from a re-analysis of the deposited data

Results flagged for a closer look

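The response differed between the MAPKAPK2 shRNAs for 7 of the 10 genes, by the limma test of shRNA 2 minus shRNA 1 on log2(FPKM + 1), beside 22.2% of all genes tested. KRT13 was at -2.29, KRT7 at -1.03, KRT8 at -0.525, KRT18 at -0.490 and KRT23 at -0.391, all lower with shRNA 2. KRT81 was at 1.06 and KRT80 at 0.328, both higher with shRNA 2. KRT13 was far above the 20 mM controls with shRNA 1, and its shRNA 2 libraries (1.23 and 0.746 FPKM) were slightly above them (0.657 and 0.521). KRT7 was low with both shRNAs. The calls of KRT8, KRT18, KRT23 and KRT80 were lost without either 20 mM control or either shRNA 1 library, and in the fit to the compared libraries alone only KRT13 and KRT7 passed. The shRNA libraries also entered the comparison on which these genes were picked, so the count is no independent evidence.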

How the results depend on the processing

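Of the members' differences between the shRNAs, 35 of 148 recomputed values lost the call, 4 gained it and 1 reversed: KRT19 under quantile normalization, at -0.046. For glucose, KRT19 reversed under quantile normalization (-0.023), and KRTAP3-1 ranged from -0.173 to 0.572 with 1 library left out, reversing without replicate 1 of the 20 mM controls (-0.114) or replicate 2 of the 0 mM controls (-0.173). Genes called for glucose numbered 6 with no filter, 28 by voom and 8 among protein-coding genes, against 0; members called were 2 by voom (KRT7 and KRT80) and 1 among protein-coding genes (KRT80), both picked with this comparison known. The knockdown called 1808 genes with no filter. Fitted to the compared libraries alone, the shRNAs differed in 1136 genes and 2 members. Leaving out 1 library at a time gave 0 to 1 genes for glucose, 696 to 3456 for the knockdown and 1376 to 3496 between shRNAs, and 0, 5 to 7 and 3 to 5 members. The lowest knockdown counts came without either 20 mM control (696 and 758), and the lowest counts between shRNAs without either shRNA 1 library (1385 and 1376). Quantile normalization took the share higher with shRNA 2 from 58.8% to 49.2% of genes called. With the replicate block the counts were 0, 3018 and 3806 genes and 0, 5 and 7 members. The difference of replicate 1 from replicate 2 within a group, over the genes tested, correlated between groups at -0.03 to 0.18. The numbers were therefore not taken as pairs. Depth limits KRT81 and KRT86 with shRNA 1 and KRTAP3-1 with shRNA 2.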
